A study of Sus scrofa with 12 samples.

Results

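The miR-143 and miR-145 entries were followed in small RNA libraries from boar testes. An entry was a member when its listed name was miR-143 or miR-145, with or without the pig prefix ssc-, and any arm or suffix after it. This rule found 9 of the 1452 listed miRNAs: the pig entries ssc-miR-143-3p, ssc-miR-143-5p, ssc-miR-145-5p and ssc-miR-145-3p, and the entries miR-143-y, miR-143-x, miR-143-z, miR-145-y and miR-145-x, which carry no pig prefix and are the study's second class of miRNAs matched to miRBase. The rule used names and no measured value. The 12 libraries came from testes of 2 breeds at 2 ages, with 3 libraries in each of the 4 groups: Hezuo (HZ) boars 30 days old (Ha) or 120 days old (Hb), and Landrace (LC) boars 30 days old (La) or 120 days old (Lb). No treatment or transgene was used, and the groups differed in breed and age. The testes were removed by castration, and the study describes extraction of RNA from a pool of samples. It is thus not known whether 1 library is 1 boar, and each p-value measures the spread between libraries.

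The 2 hairpins lie close together and are known to be cut from a shared primary transcript. Each hairpin gives a 5p and a 3p strand, of which usually one is kept as the mature miRNA, miR-143-3p and miR-145-5p being the usual main strands. The cluster is known from smooth muscle, where it favours the contractile state, miR-145 by repressing KLF4 and KLF5 and miR-143 by repressing ELK1. In the testis, smooth muscle lies in the walls of vessels, and contractile peritubular myoid cells surround the seminiferous tubules. A whole-testis library does not separate these cells, and in such bulk samples fewer cells of a type and less RNA per cell cannot be told apart.

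The sequences are shown because the entries of an arm differ by only a few bases at the ends. They are those of the deposited list, 5′ to 3′, in lower case with the seed (bases 2 to 8, which pair with targets) in capitals. The 4 pig entries have 4 different seeds.
ssc-miR-143-3p: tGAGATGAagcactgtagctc
ssc-miR-143-5p: gGTGCAGTgctgcatctctgg
ssc-miR-145-5p: gTCCAGTTttcccaggaatccctt
ssc-miR-145-3p: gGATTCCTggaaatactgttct

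The entries with no pig prefix are variants of these strands. miR-143-y and miR-143-x hold the whole pig 3p or 5p sequence with 2 more bases at the 3′ end and keep its seed. miR-145-x shares its first 18 bases with ssc-miR-145-5p, ends in 2 other bases and keeps the seed. miR-145-y starts 2 bases further in than ssc-miR-145-3p, and miR-143-z starts 3 bases before ssc-miR-143-3p, so each of these has a seed of its own.
miR-143-y: tGAGATGAagcactgtagctctt
miR-143-x: gGTGCAGTgctgcatctctggta
miR-143-z: aTCTGAGAtgaagcactgtagct
miR-145-x: gTCCAGTTttcccaggaaaa
miR-145-y: aTTCCTGGaaatactgttcttt

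In the RefSeq annotation of Sscrofa11.1, MIR143 lies at chr2:150578738-150578817 (80 bases) and MIR145 at chr2:150580126-150580211 (86 bases), with 1308 bases between them. Both lie within the bounds of IL17B (chr2:150513611-150583640), which was known here by its bounds and not by its exons or strand. The study also predicted a hairpin of its own, which is listed at chr2:150578746-150578810, inside MIR143. Its listed sequence of 64 bases is printed with the stretches that match ssc-miR-143-5p (positions 6 to 26) and ssc-miR-143-3p (positions 40 to 60) in capitals.
predicted hairpin: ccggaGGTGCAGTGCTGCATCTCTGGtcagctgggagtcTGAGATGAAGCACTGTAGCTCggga

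The 3p strand predicted from this hairpin starts 3 bases further in than ssc-miR-143-3p, runs 4 bases beyond it and held 1150 counts over the 12 libraries. It is outside the rule and was kept out of the counts of members. The miR-143 variants do not lie wholly on this hairpin: the longest match was 21 of 23 bases for miR-143-y, and 22 of 23 for miR-143-x and miR-143-z. The 2 added bases of miR-143-y, the last base of miR-143-x and the first base of miR-143-z were not matched.

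The listed miRNAs held 6520197 to 16874633 counts in a library, and replicate libraries differed by more than sampling noise. Levels are the TPM of the authors, scaled to a library total, in which a tag stands for a molecule and the length of the miRNA plays no part. A count of 3, taken as the floor, was 0.158 to 0.404 TPM, which covers counting error only, since tags amplified without molecular identifiers are not independent molecules. The second library of Hb stood apart: its TMM factor (the scaling of edgeR) was 0.694 against 0.910 to 1.195 in the other 11 libraries, and the fold changes and ratios that it moved most are given without it as well. Marker miRNAs of meiotic and haploid germ cells were miR-34b, miR-34c and miR-449 (4 entries, 3 of which had a count in every library). They summed to 23.5 to 76.9 TPM in Ha, to 16.6 to 24.6 TPM in La, to 2580 to 13177 TPM in Hb and to 11279 to 13895 TPM in Lb.

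The 9 entries together took a larger share of the counts at 120 days than at 30 days in both breeds. They held 3.34% ± 0.828 of the listed counts in Ha (SD, n = 3, as for all groups here) and 8.80% ± 2.03 in Hb, and 2.67% ± 0.345 in La and 7.04% ± 0.599 in Lb. The largest part was ssc-miR-143-3p, which ranked 7 of 1452 by mean TPM and between 3 and 14 in single libraries. ssc-miR-145-5p ranked 33, miR-143-y 37, ssc-miR-145-3p 64 and ssc-miR-143-5p 138. The other members ranked from 251 (miR-143-x) to 1037 (miR-143-z).

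ssc-miR-143-3p, the main strand of miR-143, was measured at 22407, 27212 and 15163 TPM in Ha, 45480.5, 68402 and 74315 TPM in Hb, 15077, 18363 and 20280.4 TPM in La, and 44465, 37965 and 44645 TPM in Lb. Its order was Hb, Lb, Ha, La, with means of 62732 ± 15230.4, 42358 ± 3806, 21594 ± 6065 and 17907 ± 2631 TPM. The libraries at 120 days lay above those at 30 days in each breed, the 3 Hb libraries lay above the 3 Lb libraries, and Ha and La overlapped. For this and the next entries, full separation of a pair of groups is a description only. It was also found for many of all miRNAs tested in each comparison, and is not by itself particular to an entry.

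ssc-miR-145-3p, the strand of miR-145 usually discarded, was measured at 758, 915 and 662 TPM in Ha, 1529, 3532 and 2145 TPM in Hb, 452, 491 and 608 TPM in La, and 1368, 1167 and 1414 TPM in Lb. It had the same order of groups as ssc-miR-143-3p, with means of 2402 ± 1026 TPM in Hb, 1316 ± 131 in Lb, 779 ± 128 in Ha and 517 ± 81.3 in La. No neighbouring groups in this order overlapped, and the second Hb library was the highest of the 12.

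ssc-miR-145-5p, the main strand of miR-145, was measured at 4006, 4463 and 3233 TPM in Ha, 5045, 3870.2 and 8869 TPM in Hb, 2828, 2831 and 3147 TPM in La, and 11859, 9454 and 9533 TPM in Lb. Its order was Lb, Hb, Ha, La, with means of 10282 ± 1366, 5928 ± 2614, 3901 ± 622 and 2935 ± 184 TPM. Lb lay above every other library, while Hb and Ha overlapped: the second Hb library was below 2 of the 3 Ha libraries.

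ssc-miR-143-5p, the strand of miR-143 usually discarded, was measured at 199.9, 228 and 147 TPM in Ha, 345, 198.9 and 322 TPM in Hb, 135, 150.3 and 177 TPM in La, and 569, 475 and 559.7 TPM in Lb. It had the order of ssc-miR-145-5p, with means of 535 ± 51.9 TPM in Lb, 289 ± 78.8 in Hb, 192 ± 41.2 in Ha and 154 ± 21.5 in La. Lb again lay above every other library, Hb and Ha overlapped, and so did Ha and La. Among the 4 pig entries, the order of the groups was thus shared by the strands of an arm, 3p or 5p, and not by the strands of a gene.

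**Figure D1:**
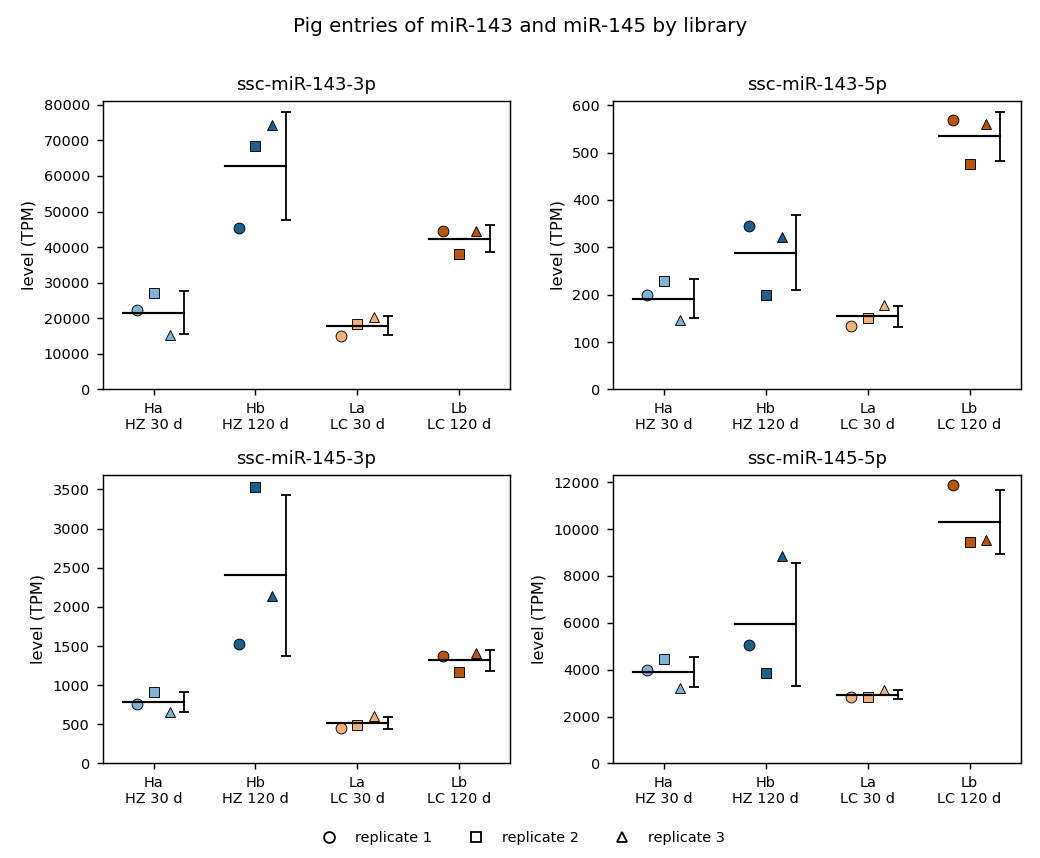
Level in TPM (linear axis from 0) of the 4 pig entries in each library, by group (HZ is Hezuo, LC is Landrace, d is days of age), with the mean as a line and 1 SD of 3 libraries as a bar. The 3p strands (left) are highest in Hb, with means of 62732 and 2402 TPM, and the 5p strands (right) are highest in Lb, with means of 535 and 10282 TPM.

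The variant entries lay below the pig entry of their arm in every library. How a tag that matches more than 1 entry of an arm was assigned is not given in the sources used here beyond pig entries coming first, and the split between entries of an arm may depend on it. miR-143-y was measured at 3000.3, 3446 and 2767 TPM in Ha, 5642, 5226 and 6646 TPM in Hb, 2150.2, 2179 and 2476 TPM in La, and 6789.6, 6398 and 6796 TPM in Lb. It made up 7.10 to 15.4% of the 3p counts of miR-143. Its order of groups by mean TPM was Lb, Hb, Ha, La, which is that of the 5p pig entries. miR-143-x ranged from 25.4 to 97.6 TPM over the libraries and made up 14.6 to 22.7% of the 5p counts of miR-143. miR-145-y ranged from 15.5 to 49.2 TPM, or 1.25 to 3.497% of its arm. miR-145-x ranged from 4.89 to 64.9 TPM, or 0.166 to 1.504% of its arm, and its order of groups was Hb, Lb, Ha, La, that of the 3p pig entries. By mean TPM, miR-143-x had the order of the 5p and miR-145-y that of the 3p pig entries. The order of Hb and Lb depended on the scaling for 2 of these variants: with TMM the log2 fold change of Lb over Hb was -0.17 for miR-143-y and -0.02 for miR-143-x, so that Lb was not the higher group. miR-143-z held 34 counts in all, with 4, 6 and 0 in the libraries of Ha, 1, 8 and 2 in those of Hb, 1, 0 and 0 in those of La and 7, 0 and 5 in those of Lb, so its values lie near the floor and no fold change is read from them.

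The comparison of ages within HZ boars (Ha vs. Hb) asks what changed between the immature testis and the testis at 120 days. The call required a log2 fold change beyond 1 in either direction and an unadjusted p under 0.05 in edgeR's quasi-likelihood test, and counts with a Benjamini-Hochberg adjusted p under 0.05 are given beside these. In Hb, 5 of the 9 entries rose and 0 fell, against 25.1% and 14.4% of the 1441 miRNAs tested. The same 5 rose with the adjusted p, against 20.3% of all tested rising and 11.3% falling. An unadjusted p under 0.05 in edgeR's test, whatever the fold, was found for 8 of the 9, against 45.0% of all tested. The 8 entries with a count in every library had a median log2 fold change of 1.10, beside 0.32 over all miRNAs tested.

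ssc-miR-143-3p rose by a log2 fold change of 1.74 (SE 0.332, edgeR's quasi-likelihood test, adjusted p = 0.00134). ssc-miR-145-3p rose by a log2 fold change of 1.89 (SE 0.401, adjusted p = 0.00258). For ssc-miR-145-5p the log2 fold change was 0.72 (SE 0.294, 95% interval 0.09 to 1.35, adjusted p = 0.0726), which was not called. For ssc-miR-143-5p it was 0.68 (SE 0.266, 95% interval 0.11 to 1.25, adjusted p = 0.0620), also not called. Without the second Hb library ssc-miR-143-3p and ssc-miR-145-3p were still called, at 1.45 and 1.21, and ssc-miR-145-5p and ssc-miR-143-5p stood at 0.82 and 0.74, under the fold threshold. Without the first Hb library ssc-miR-145-5p was called at 1.06, and without the third it stood at 0.34.

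Of the variants, miR-143-y (log2 fold change 1.07), miR-143-x (1.13) and miR-145-x (3.01, SE 0.516, edgeR's adjusted p = 0.000605) rose in Hb. miR-145-y reached a log2 fold change of 0.998, just under the threshold of 1, with an adjusted p of 0.0259 in edgeR's test. It was called with RLE factors and with DESeq2 (1.07 each), with TMM without the members (1.02), with filterByExpr (1.06) and without the first Ha, the second Ha or the first Hb library (1.09, 1.11 and 1.31). miR-143-y fell just below the threshold with library size alone, at 0.94, without the second Hb library, at 0.96, and without the third Ha library, at 0.999, where miR-143-x stood at 0.99.

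The comparison of ages within LC boars (La vs. Lb) asks the same of the other breed. In Lb, 8 of the 9 entries rose and 0 fell, against 26.3% and 5.81% of the 1446 miRNAs tested. Of these, 7 rose with the adjusted p, against 23.2% of all tested rising and 5.33% falling. The additional entry was miR-143-z, with the few counts given above, and it was not called by DESeq2, in 1 fit of all libraries or when any 1 of 4 libraries was left out. An unadjusted p under 0.05 in edgeR's test, whatever the fold, was found for 9 of the 9, against 47.0% of all tested. The 8 entries counted in every library had a median log2 fold change of 1.42, beside 0.32 over all miRNAs tested.

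In Lb, ssc-miR-145-5p rose by 1.62 on the log2 scale (SE 0.108, edgeR's adjusted p = 1.1e-07). ssc-miR-143-5p rose by nearly as much, with a log2 fold change of 1.60 (SE 0.139, adjusted p = 1.51e-06). The 3p strands rose too, and the log2 fold change was 1.05 for ssc-miR-143-3p (SE 0.128, adjusted p = 3.1e-05) and 1.16 for ssc-miR-145-3p (SE 0.138, adjusted p = 2.69e-05). Without the first La library, ssc-miR-143-3p stood at 0.92 and was not called. Of the variants, miR-143-y, miR-143-x and miR-145-x rose by log2 fold changes of 1.37, 1.46 and 1.67, and miR-145-y stood at 0.98. miR-145-y was called with library size alone (1.207) and without the third La library (1.16).

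**Figure D2:**
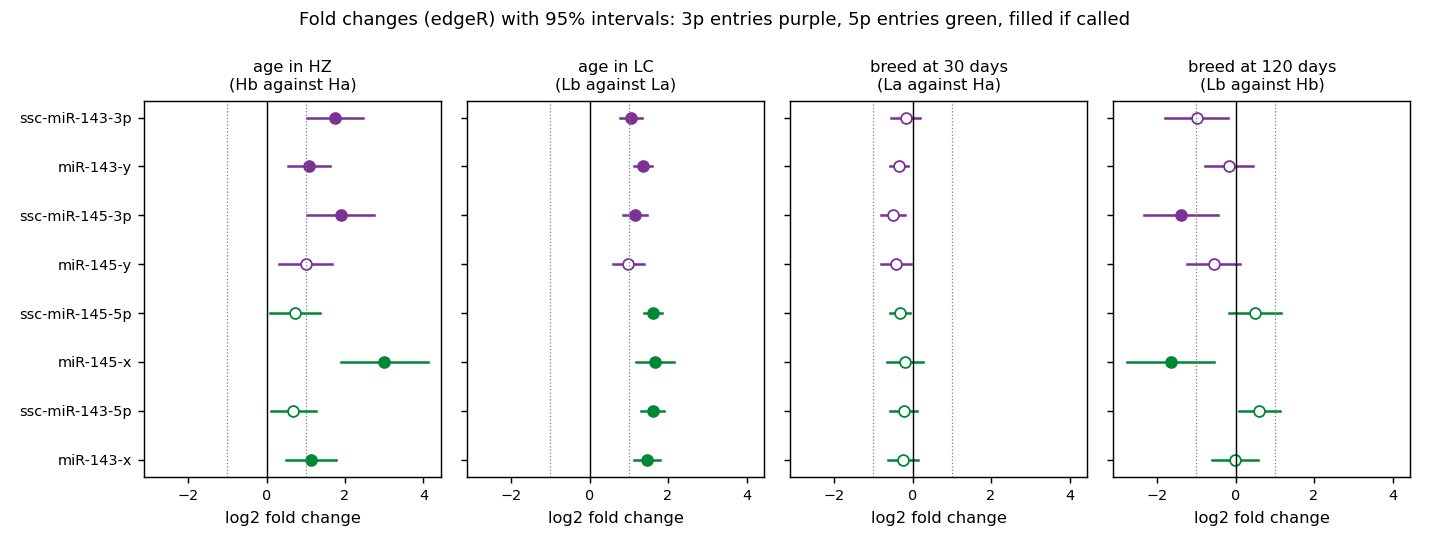
Log2 fold change (linear axis, dotted lines at -1 and 1) of the 8 entries with a count in every library in the 4 comparisons, with its 95% interval from edgeR. 3p entries are purple, 5p entries green, and filled points were called; with age in HZ the 3p pig entries stand at 1.74 and 1.89 and the 5p pig entries at 0.68 and 0.72, while with age in LC the 5p pig entries stand at 1.60 and 1.62 and the 3p pig entries at 1.05 and 1.16.

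The comparison of breeds at 30 days (Ha vs. La) showed small differences. In La, 0 of the 9 entries were called higher and 1 was called lower, against 3.76% and 5.71% of the 1278 miRNAs tested. The entry called lower was miR-143-z, with 10 counts in Ha and 1 in La. With edgeR's adjusted p, 0 were higher and 0 lower, against 1.64% and 3.6% of all tested, and by DESeq2 the counts were also 0. An unadjusted p under 0.05, whatever the fold, was found for 5 of the 9 in edgeR's test, against 24.7% of all tested. The 8 entries counted in every library stood between -0.50 and -0.18, below 0 in 8 of 8, with a median of -0.29 beside -0.01 over all miRNAs tested. The largest difference was that of ssc-miR-145-3p, whose log2 fold change was -0.50 (SE 0.143, edgeR's adjusted p = 0.0335) and thus within the threshold of 1. ssc-miR-143-3p stood at -0.18 (95% interval -0.55 to 0.19).

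In the comparison of breeds at 120 days (Hb vs. Lb), the 3p pig entries had fold changes below 0 and the 5p pig entries above 0, while the 5p variant miR-145-x stood with the 3p pig entries. In Lb, 0 entries were called higher and 2 lower, ssc-miR-145-3p and miR-145-x, against 8.45% and 8.38% of the 1444 miRNAs tested. With edgeR's adjusted p, 0 were higher and 0 lower, against 1.11% and 2.15% of all tested, while 2 were lower in DESeq2's test, in edgeR's exact test and in 1 fit of all 12 libraries, and 3 without the first Hb library. An unadjusted p under 0.05, whatever the fold, was found for 4 of the 9 in edgeR's test, against 21.3% of all tested. The 8 entries counted in every library had a median log2 fold change of -0.36, with 2 of them above 0, beside 0.06 over all miRNAs tested. ssc-miR-145-3p stood at a log2 fold change of -1.39 (SE 0.440, edgeR's adjusted p = 0.0907) and miR-145-x at -1.66 (SE 0.516, adjusted p = 0.0881). Without the second Hb library they stood at -0.54 and -1.09 and neither was called, and with library size alone ssc-miR-145-3p stood at -0.85.

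The other 3p pig entry, ssc-miR-143-3p, stood at -0.99 (95% interval -1.79 to -0.19, edgeR's adjusted p = 0.139), short of the call. It stood at -0.57 without the second Hb library. It was called with RLE factors and with DESeq2 (-1.06 each), with filterByExpr (-1.04), without the first Hb library (-1.32) and without the third Lb library (-1.05). The 5p pig entries had the opposite sign. ssc-miR-143-5p stood at 0.61 (95% interval 0.08 to 1.13, adjusted p = 0.164) and ssc-miR-145-5p at 0.49 (95% interval -0.18 to 1.16, adjusted p = 0.385). Of the variants, miR-145-y stood at -0.56, miR-143-y at -0.17 and miR-143-x at -0.02.

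Whether the age effect differed between breeds was tested for each miRNA as an interaction over the 12 libraries. Of the 9 entries, 0 had an adjusted p under 0.05 in edgeR's test, against 1.38% of the 1452 miRNAs, and 3 had an unadjusted p under 0.05: ssc-miR-143-5p, ssc-miR-145-5p and miR-145-x, against 21.1% of all tested. In DESeq2's test 1 entry passed, ssc-miR-143-5p, with an adjusted p of 0.0401. The difference (LC minus HZ, log2) was 0.87 for ssc-miR-143-5p (edgeR's adjusted p = 0.0924), 0.85 for ssc-miR-145-5p (adjusted p = 0.153), -0.74 for ssc-miR-143-3p (adjusted p = 0.306) and -0.78 for ssc-miR-145-3p (adjusted p = 0.377). By edgeR's adjusted p, these tests of single entries did not separate the differences from the spread between libraries. Without the second Hb library the difference was 0.91 for ssc-miR-143-5p and 0.84 for ssc-miR-145-5p, but -0.36 for ssc-miR-143-3p and -0.0099 for ssc-miR-145-3p, so that the 3p difference of miR-145 rested on that library. Without the first Hb library, ssc-miR-143-3p passed at -1.04 and miR-145-x at -1.84, and without the third Hb library ssc-miR-145-5p passed at 1.23.

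A ratio of a pair of entries in the same library does not depend on how libraries are scaled, so the arms and the cluster partners were also compared as count ratios. The ratios compare libraries with each other, since strands of different sequence are not captured equally well. The ratio of ssc-miR-143-3p to ssc-miR-143-5p was 112, 119 and 103 in Ha, 132, 344 and 230.5 in Hb, 112, 122 and 114 in La, and 78.1, 79.9 and 79.8 in Lb. It was higher in every Hb library than in any other, and lower in every Lb library than in any other. On the log2 scale its mean difference between the ages (120 minus 30 days) was 0.97 in HZ, or 0.65 without the second Hb library, and -0.55 in LC.

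The ratio of ssc-miR-145-5p to ssc-miR-145-3p was 5.28, 4.88 and 4.88 in Ha, 3.30, 1.10 and 4.13 in Hb, 6.26, 5.77 and 5.18 in La, and 8.67, 8.10 and 6.74 in Lb. In the second Hb library, where the main and the other strand were nearly equal in count, 35493 tags fell on the 5p and 32394 on the 3p entry. The Hb libraries were the lowest and the Lb libraries the highest of the 12. On the log2 scale the age difference of the ratio was -1.02 in HZ, or -0.44 without the second Hb library, and 0.45 in LC. In both hairpins, the mean balance was thus nearer to 3p at 120 days in HZ and nearer to 5p at 120 days in LC.

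The main strands of the cluster partners, ssc-miR-143-3p and ssc-miR-145-5p, stood in a ratio of 5.59, 6.10 and 4.69 in Ha, 9.01, 17.7 and 8.38 in Hb, 5.33, 6.49 and 6.44 in La, and 3.75, 4.02 and 4.68 in Lb. Every Hb library was above every other library, and every Lb library was below the other 9. The other strands, ssc-miR-143-5p and ssc-miR-145-3p, stood in a ratio of 0.264, 0.249 and 0.222 in Ha, 0.226, 0.0563 and 0.150 in Hb, 0.298, 0.306 and 0.292 in La, and 0.416, 0.407 and 0.396 in Lb. Here Lb was the highest group and Hb overlapped with Ha.

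These ratios, and those of the variants to their pig entries, were tested by exact two-sided permutation of the group labels within age or within breed, with 3 tests for each of 8 ratios. The age test permuted age labels within breed. The breed test, and that of the breed difference of the age effect, permuted breed labels within age. The reference of the latter is thus no breed difference at either age, and its p-value does not single out a difference of age effects. Of these 24 tests, 10 had an unadjusted p under 0.05 and 0 had a Benjamini-Hochberg adjusted p under 0.05. The smallest unadjusted p was 0.005, which is the smallest that 400 arrangements allow, and its adjusted p was 0.06. It was reached by the breed effect on the ratio of the other strands, 1.0004 over both ages (LC minus HZ, log2) and 0.72 without the second Hb library, and by the age effect on the ratio of miR-145-y to ssc-miR-145-3p. The breed effect on the arm ratio of miR-145 was 0.93 (exact permutation test, p = 0.01, adjusted p = 0.075) and 0.63 without the second Hb library. It was the mean of a difference of 0.19 at 30 days and one of 1.66 at 120 days. The tests share libraries and entries and are not independent of each other.

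The breed difference of the age effect on the ratio of the main strands was -1.57 (LC minus HZ, log2; exact permutation test, p = 0.015, adjusted p = 0.075). For the arm ratio of miR-143 it was -1.52 (exact permutation test, p = 0.025, adjusted p = 0.075). For the arm ratio of miR-145 it was 1.47 (exact permutation test, p = 0.095, adjusted p = 0.152). For the ratio of the other strands it was 1.42 (exact permutation test, p = 0.11, adjusted p = 0.165). Without the second Hb library these 4 differences were -1.23, -1.196, 0.89 and 0.85, with the same signs. At each age alone, 3 libraries against 3 allow no p below 0.1 in this test. At 30 days the breeds differed by 0.06 in the arm ratio of miR-143 (exact permutation test, p = 0.5) and by 0.19 in that of miR-145 (p = 0.2). At 120 days they differed by -1.46 and 1.66, each with the smallest p that is possible, and without the second Hb library by -1.14 and 1.08.

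Set against each other by arm, the partners had ratios that varied less over the libraries. The ratio of ssc-miR-143-3p to ssc-miR-145-3p lay between 19.4 and 37.4 over the 12 libraries, with group means on the log2 scale of 4.77 in Ha and 4.76 in Hb, and 5.12 in La and 5.01 in Lb. Without the second Hb library the mean in Hb was 5.005, which is 0.24 above that in Ha. The ratio of ssc-miR-143-5p to ssc-miR-145-5p lay between 0.0364 and 0.0685, with group means of -4.36, -4.31, -4.26 and -4.26. The SD over the 12 libraries was 0.27 and 0.22 on the log2 scale for these same-arm ratios, against 0.63 and 0.78 for the arm ratios of miR-143 and miR-145 and 0.61 and 0.79 for the main and the other strands of the partners. Over the 11 libraries without the second Hb library it was 0.18 and 0.23 for the same-arm ratios, against 0.44 and 0.41 for the arm ratios and 0.40 and 0.44 for the main and the other strands. The same-arm ratios were added after the values had been seen and are given with no test. Within Hb they still varied: the first of them was lowest in the second library and highest in the third, and the other was highest in the first library.

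**Figure D3:**
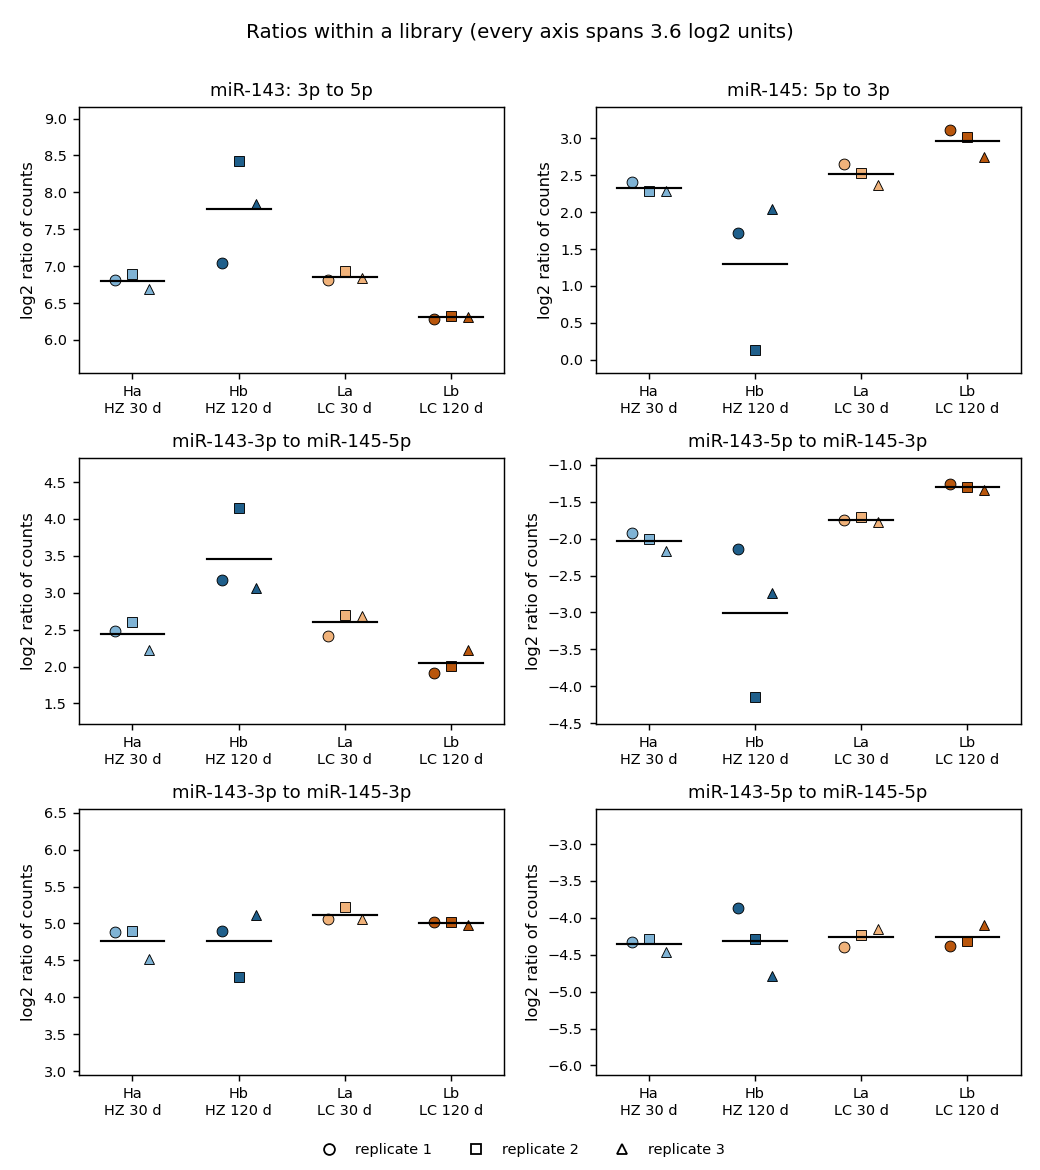
Log2 count ratio of pairs of entries in each library, by group, with the group mean as a line; each vertical axis spans the same number of log2 units. The top 4 panels, which set 3p against 5p strands, move in opposite directions from 30 to 120 days in HZ and LC boars, and the bottom 2 panels, which set strands of the same arm against each other, range by 0.95 and 0.91 over the 12 libraries.

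To see whether the arms of other miRNAs moved in the same way, the log2 ratio of 3p to 5p, minus its mean over the 12 libraries, was taken for 43 other pig miRNAs, each with both arms listed at 10 TPM or more on average and counted in every library. In the second Hb library miR-145 stood at 2.14 and miR-143 at 1.49, and 0 and 4 of the 43 stood higher, with a median of -0.17. That library also had the widest spread among the 43, with quartiles of -0.88 and 0.45. In the first Hb library miR-145 stood at 0.55 with 0 of 43 higher and miR-143 at 0.11 with 15 higher, and in the third miR-143 stood at 0.91 with 1 higher and miR-145 at 0.23 with 9 higher. In the 3 Lb libraries both lay between -0.84 and -0.48, and 40 to 42 of the 43 stood higher. The median of the 43 lay between -0.17 and 0.04 in these 6 libraries. In the 6 libraries at 30 days both lay between -0.37 and -0.0021, and 26 to 41 of the 43 stood higher.

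The second Hb library enters the mean that is taken off, which lowers miR-143 and miR-145 in the other libraries. With the mean taken over the 11 libraries without it, both lay between -0.18 and 0.19 at 30 days with 8 to 37 of the 43 higher, and between -0.65 and -0.28 in Lb with 37 to 42 higher. In the first Hb library miR-145 then stood at 0.75 with 0 higher and miR-143 at 0.24 with 6 higher, and in the third miR-143 stood at 1.05 with 1 higher and miR-145 at 0.42 with 6 higher. This comparison was added after the values had been seen and has no test.

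**Figure D4:**
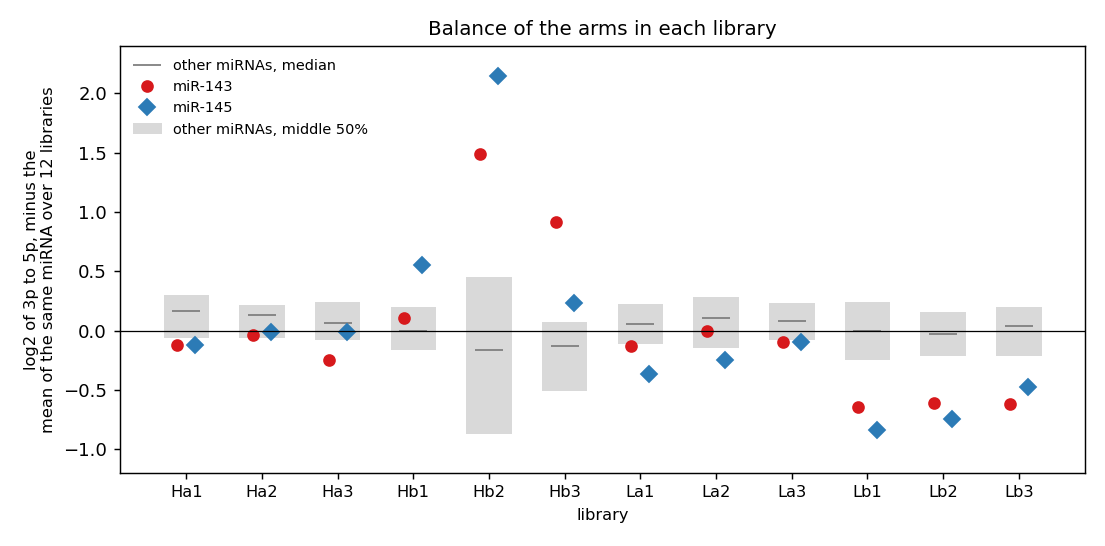
Log2 ratio of 3p to 5p counts of miR-143 (circles) and miR-145 (diamonds) in each library, each minus its own mean over the 12 libraries, with the median (line) and quartiles (box) of 43 other pig miRNAs treated in the same way. Both lie above the median of the 43 in the Hb libraries, up to 1.49 and 2.14, and below it in the Lb libraries, between -0.84 and -0.48.

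The variant entries were compared with the pig entry of their arm in the same way. miR-143-y, with 2 more bases than ssc-miR-143-3p, made up 12.8% ± 2.27 of the 3p counts of miR-143 in Ha and 8.78% ± 2.03 in Hb, and 11.3% ± 1.01 in La and 13.6% ± 0.689 in Lb. Its log2 ratio to ssc-miR-143-3p had an age difference of -0.62 in HZ and 0.31 in LC, a breed difference of 0.93 (exact permutation test, p = 0.02, adjusted p = 0.075). miR-143-x made up 16.3% ± 0.878 of the 5p counts of miR-143 in Ha and 20.9% ± 1.95 in Hb, and 16.1% ± 0.730 in La and 14.8% ± 0.173 in Lb. Its log2 ratio to ssc-miR-143-5p had an age difference of 0.44 in HZ and -0.14 in LC, a breed difference of -0.58 (exact permutation test, p = 0.06, adjusted p = 0.131). In Hb, the longer 3p variant of miR-143 was thus at its lowest share, and the longer 5p variant at its highest.

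The shorter miR-145-x made up 0.181% ± 0.0237 of the 5p counts of miR-145 in Ha and 0.858% ± 0.592 in Hb, and 0.196% ± 0.0211 in La and 0.203% ± 0.0341 in Lb. It held 129, 542 and 504 counts in the Hb libraries, against 73 or 74 in those of Ha. Its log2 ratio to ssc-miR-145-5p differed between the ages by 2.01 in HZ and by 0.05 in LC (120 minus 30 days), a breed difference of -1.96 (exact permutation test, p = 0.02, adjusted p = 0.075), or -1.43 without the second Hb library. miR-145-y made up 3.19% ± 0.264 of the 3p counts of miR-145 in Ha and 2.09% ± 0.776 in Hb, and 3.33% ± 0.0280 in La and 2.97% ± 0.0513 in Lb. The age difference of its log2 ratio to ssc-miR-145-3p was -0.70 in HZ and -0.17 in LC. Over both breeds it was -0.44 (exact permutation test, p = 0.005, adjusted p = 0.06), or -0.27 without the second Hb library.

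The 3p strand of the predicted hairpin, 18 bases of which are shared with ssc-miR-143-3p, stood at 8.16 TPM in Ha and 10.8 in Hb, and at 3.98 in La and 12.5 in Lb, as means. In Lb it rose by 1.46 on the log2 scale (SE 0.235, edgeR's adjusted p = 0.000327) and stood at 0.63 in Hb (adjusted p = 0.263). Outside the cluster, the seed of ssc-miR-143-3p was found in miR-4770-z, with 195 counts in all, and in a miRNA predicted by the study, with 669. Beside the 4503572 counts of ssc-miR-143-3p these added little to the tags with that seed.

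The likeness of patterns over the 12 libraries was measured as the root mean square difference of log2(TPM + 1), each miRNA minus its own mean, among the other miRNAs at 10 TPM or more on average. It is a description with no test. The 5 most like ssc-miR-143-3p were ssc-miR-100 (0.285), miR-192-x (0.291), ssc-miR-29a-3p (0.336), ssc-miR-192 (0.352) and ssc-miR-183 (0.380). ssc-miR-145-3p, at 0.254, was closer to it than any of these, whereas 41 of them were closer than ssc-miR-145-5p (0.584) and 49 closer than ssc-miR-143-5p (0.601). The 5 most like ssc-miR-145-5p were miR-182-x (0.326), ssc-miR-212 (0.350), miR-29-x (0.350), ssc-miR-582-5p (0.393) and miR-193-y (0.395). ssc-miR-143-5p, at 0.210, was closer to it than any of these, and 131 of them were closer than ssc-miR-145-3p, its own other strand (0.745). All these distances between pig entries lay below the median distance of the miRNAs compared. The variants did not all go with their arm. The 3p entry miR-143-y was closer to ssc-miR-145-5p than to ssc-miR-143-3p, and the 5p entry miR-145-x was closer to ssc-miR-143-3p. miR-143-x and miR-145-y were closer to the main strand of their own arm. With a minimum of 1 TPM, 3 of the first 5 and 1 of the other 5 were still among the 5 most like.

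The nearest of these, ssc-miR-100, of the miR-99 and miR-100 family, had means of 9814 ± 1018 TPM in Ha and 28591 ± 9026 in Hb, and of 8372 ± 613 in La and 20863 ± 579 in Lb, which is the order of groups of ssc-miR-143-3p. ssc-miR-29a-3p, a miRNA known to repress collagens, had means of 840 ± 52.8, 3414 ± 962, 846 ± 114 and 1415 ± 106 TPM in the same groups. Its age effect differed between breeds by -1.73 (LC minus HZ, log2, edgeR's adjusted p = 0.0377). It was picked for its pattern over these same libraries, so this p-value is not independent of the choice. miR-193-y, on the side of ssc-miR-145-5p, had means of 160.5 ± 26.03, 313 ± 181, 116 ± 21.2 and 466 ± 122 TPM. It was highest in Lb, as were miR-182-x, ssc-miR-212, miR-29-x and ssc-miR-582-5p by their means. With TMM the log2 fold change of Lb over Hb was -0.07 for ssc-miR-212 and 0.03 for ssc-miR-582-5p, and 0.20 to 0.40 for the others.

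Of the other miRNAs known from smooth muscle, 0 were called higher with age in either breed. This list held 12 pig entries of miR-21, miR-221, miR-222, miR-24, miR-26a, miR-23b and miR-27b, which act on smooth muscle growth and phenotype but are expressed in many cell types. In Ha vs. Hb, 0 of the 12 rose and 2 fell, and in La vs. Lb 0 rose and 1 fell, against 25.1% of all tested rising and 14.4% falling in HZ and 26.3% and 5.81% in LC. The falls were thus near the share over all miRNAs. The median log2 fold changes were -0.24 and -0.34, beside 0.32 and 0.32 over all miRNAs tested. Below the fold threshold, ssc-miR-221-5p stood at 0.87 in HZ (edgeR's adjusted p = 0.0393) and ssc-miR-24-3p at 0.67 (adjusted p = 0.111), close to the values of the 5p pig entries of the cluster. The difference between the lists was not tested. ssc-miR-222 fell in both, by 1.26 in HZ and by 1.12 in LC on the log2 scale (edgeR's adjusted p = 0.0492 and 0.00425). ssc-miR-21-3p fell by 1.199 in HZ and stood at 0.34 in LC. In Hb vs. Lb, ssc-miR-24-3p (-1.30) and ssc-miR-26a (-1.22) were called lower and ssc-miR-21-3p (1.11) higher, with 0 of these passing the adjusted p.

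Markers of other cells that the testis holds moved as follows, and their part in the changes of miR-143 and miR-145 was not tested. No list had an entry at 0 in every library. The counts of called entries stand beside 25.1% of all tested rising and 14.4% falling with age in HZ, and 26.3% and 5.81% in LC, and on lists of this length nothing particular to a list is read from them. The 12 mesenchymal entries of miR-199 and miR-214 summed to 74848 to 77877 TPM in Ha and 32285 to 43890.2 in Hb, and to 84690 to 94056 in La and 47472 to 55355 in Lb, with 0 rising and 2 falling in HZ and 0 rising and 4 falling in LC. The 4 endothelial entries of miR-126 summed to 12672 to 15839 TPM in Ha and 11458 to 12312 in Hb, and to 11712 to 13364 in La and 8701 to 11242.5 in Lb, with 0 called for age in either breed. In Lb against Hb all 4 stood below 0. Of these, miR-126-y was called lower (-1.53, log2, edgeR's adjusted p = 0.0322), against 8.38% of all tested. Its age effect differed between breeds by -1.59 (LC minus HZ, log2, edgeR's adjusted p = 0.0476), against 1.38% of all tested. Over the marker lists, the median log2 fold change of Lb over Hb ran from -0.82 (endothelial) to 0.75 (leukocyte), beside 0.06 over all miRNAs. The 17 striated muscle entries (miR-1, miR-133, miR-206, miR-208 and miR-499) summed to 221.5 to 380.2 TPM in Ha and 499.1 to 836 in Hb, and to 229 to 325 in La and 839 to 946 in Lb, with 6 rising in HZ and 8 in LC. The 4 germ cell entries rose in both breeds. Erythroid entries (10) lay between 863 and 2468 TPM over the libraries, with 0 rising and 1 falling in HZ and 0 rising and 4 falling in LC. Leukocyte entries (12) lay between 437 and 1481 TPM, with 3 falling in HZ and 0 called in LC. Epithelial entries (8) lay between 52.45 and 380.3 TPM, with 1 rising and 1 falling in HZ and 3 rising and 1 falling in LC.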

How the data were processed

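Small RNA was sequenced in 12 testis libraries. With fastp 0.18.0 the authors trimmed adaptors and dropped poor reads and those under 18 nt. Tags of other non-coding RNAs and of exons, introns and repeats of Sscrofa11.1 were taken out, bowtie matched what was left to miRBase 22.1, and miRDeep2 gave predictions from the unmatched tags and counted reads. Each tag was given to 1 class, with pig miRNAs first and predicted miRNAs last. The deposited counts are raw tag counts per listed miRNA and library. The deposited TPM divides a count by a library total larger than the sum of the listed counts and writes a count of 0 as 0.01. Of the table of predicted miRNAs, the position and sequence of a hairpin were used.

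Differential expression was tested on the counts with edgeR 4.0.16 (glmQLFit and glmQLFTest, TMM, R 4.3.3), for miRNAs with at least 1 count in the libraries compared. The study names edgeR and the thresholds but not the test within edgeR. The interaction used all 12 libraries. The SE of a log2 fold change is its size divided by the square root of F. On simulated counts, 188 to 198 of 200 changed miRNAs were called in the 4 comparisons, and 154 of 200 in the interaction, with 22 to 58 and 7 false calls among the 1078 to 1246 and 1252 unchanged miRNAs. Recovery at the fold changes found for the pig entries was not tested. Exact permutation tests were run on log2 count ratios in Python 3.11.15.

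All 9 members, the 5 miRNAs most like ssc-miR-143-3p and the 5 most like ssc-miR-145-5p, and a list of other smooth muscle miRNAs were named. Members, lists and tests were chosen with earlier results of these data known. Positions came from the RefSeq annotation of Sscrofa11.1 by name. Alternatives were RLE factors, library size alone, TMM without the members, DESeq2 1.42.0 (Wald test), the exact test in edgeR, filterByExpr, 1 fit of all libraries, a block for the replicate number, summed entries of an arm, ratios of mean TPM, and leaving out 1 library at a time. Target genes and mRNA were not analysed here.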

Additional observations from a re-analysis of the deposited data

Results flagged for a closer look

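Several ratios moved in opposite directions with age in the breeds, in every library of each, and the difference between the age effects (LC minus HZ, log2) is given with its test in the report. It was -1.52 for the arm ratio of miR-143, 1.47 for that of miR-145 and -1.57 for ssc-miR-143-3p to ssc-miR-145-5p. For miR-143-y to ssc-miR-143-3p it was 0.93, and for miR-143-x to ssc-miR-143-5p it was -0.58. In exact permutation tests the unadjusted p of these 5 differences was 0.025, 0.095, 0.015, 0.02 and 0.06, and the adjusted p lay between 0.075 and 0.152. The ratios share entries and libraries, so they are not separate observations. Part of the size of the first 3 comes from the second Hb library, without which they were -1.196, 0.89 and -1.23.

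The 3p strand that the study predicted from a hairpin inside MIR143, which is outside the rule by name, held 1150 counts, above the floor of 3 counts.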

How the results depend on the processing

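Of 722 fold changes of members under an alternative, 652 kept their direction and their side of the thresholds, 22 lost a call, 20 gained one, 15 changed sign and 13 values with no test moved. The number rising in Hb was 2 with the entries of an arm summed, which tests fewer entries, and 3 to 7 with a library left out, lowest without the third Ha and highest without the first Hb library. It was 6 with RLE factors, TMM without the members, DESeq2 or filterByExpr, where miR-145-y was called, and 4 with library size alone. The number rising in Lb was 5 with summed arms and 7 to 8 with a library left out. The number lower in La was 0 with DESeq2, filterByExpr, all libraries in 1 fit or the replicate block, and 0 to 1 with a library left out. With the adjusted p the number lower in La was 0, but 1 without the third Ha library. The number lower in Lb against Hb was 3 with RLE factors, DESeq2 or filterByExpr, where ssc-miR-143-3p was called, 1 with library size alone or summed arms, and 0 to 3 with a library left out, 0 being without the second Hb library. With the adjusted p it was 0, but 2 with DESeq2, edgeR's exact test, 1 fit of all libraries or the replicate block, and 0 to 3 with a library left out. The number with an age effect that differed between breeds was 1 with DESeq2 (ssc-miR-143-5p) and 0 to 2 with a library left out. With the replicate block miR-145-y was called in Lb (1.003) and miR-143-z was not. The replicate numbers do not pair the libraries (correlations of same-numbered libraries between -0.124 and 0.129), and with the number as a block 5 entries rose in Hb and 8 in Lb.

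The changes of sign were in values that were not called. In Hb vs. Lb, miR-143-y became 0.20 with library size alone (-0.37 to 0.0689 with a library left out). There miR-143-x became 0.31 with library size alone, 0.00767 with TMM without the members and 0.0331 in 1 fit of all libraries (-0.16 to 0.10), and miR-143-z ranged from -1.47 to 0.61. With a library left out, ssc-miR-143-3p ranged from -0.38 to 0.0215 in Ha vs. La and miR-143-z from -0.73 to 1.46 in Ha vs. Hb. The breed difference for miR-145-y became 0.36 with library size alone (-0.25 to 0.21). The age effect over both breeds ranged from -0.48 to 0.00367 for the arm ratio of miR-145 and from -0.48 to 0.0184 for the ratio of the other strands, above 0 without the second Hb library. The cause was not tested. Library size alone moved the median of all miRNAs by 0.21 in La vs. Lb, 0.25 in Hb vs. Lb and 0.32 in the interaction, and relative to it the 3p pig entries stayed below and the 5p pig entries above in Hb vs. Lb.

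Over all miRNAs, filterByExpr called 198 higher in Hb against 362, 204 higher and 53 lower in Lb against 380 and 84, 16 higher and 46 lower in La against 48 and 73, and 63 higher in Lb against 122 in Hb vs. Lb, since it tests fewer miRNAs. DESeq2 called 29 higher in La, library size alone 75 lower in Lb against 121 in Hb vs. Lb, and there 77 were higher without the first Lb library. The interaction counted 20, or 36 with RLE factors, 0 with library size alone, 63 with filterByExpr, 121 with DESeq2 and 0 to 168 with a library left out.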
